A study of Mus musculus with 6 samples.

Results

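Elastic fibres give skin, arteries, lungs and ligaments their recoil, and microfibrils are the fibrillin scaffolds on which the elastin core is laid down. The genes described here are 10 that encode the parts of these fibres: the elastin gene Eln, the fibrillin genes Fbn1 and Fbn2, the microfibril-associated genes Mfap2, Mfap4 and Mfap5, and the fibulin genes Fbln1, Fbln2, Fbln5 and Efemp2. They were chosen by name for their roles in the fibre, but with earlier results of these data known. Each symbol matched 1 row of the 29018 genes in the expression table. All 10 passed the filter on low counts, which kept 18221 genes.

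The cells were calvarial osteoblasts, the bone-forming cells of the skull vault, grown from neonatal mice and taken through osteogenic differentiation before polyA RNA was sequenced. The knockout (KO) cells carried a knockout of NDR1, the protein kinase that Stk38 encodes and a relative of the LATS kinases, and the cells they were set against were wild type (WT). There were 3 libraries of each genotype, and the labels do not say whether these came from separate animals, litters or cultures, so p-values measure how far these libraries vary, which may be a technical spread. Strain, sex, the KO allele and the length of differentiation are not given in the sources used here.

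Library totals lay between 61461870 and 76159034 counts. Stk38 itself had 3843, 3004 and 4040 counts in KO and 4781, 5082 and 5331 counts in WT, a level of 65.6% of WT (log2 change -0.61 ± 0.05, SE, edgeR, Benjamini-Hochberg adjusted p = 8.10e-06), so transcripts of the targeted gene were still read in the cultures labelled KO. Among the osteoblast markers read was Col1a2, a chain of type I collagen. It was at 1565 ± 36.9 FPKM in KO and 2152 ± 29.5 FPKM in WT (SD, n = 3). The late marker Bglap was at 0.583 FPKM in KO and 1.07 FPKM in WT. Col1a2 alone does not identify osteoblasts, and markers of other cells, given below, were read too. FPKM is the authors' level divided by transcript length and library size, and it is the scale used here wherever genes are set side by side.

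Tropoelastin, the soluble product of Eln, is secreted, gathers on microfibrils and is joined into an insoluble core by lysyl oxidases. Fibrillins polymerise into the microfibrils, the small glycoproteins MAGP-1 and MAGP-2 (Mfap2 and Mfap5) bind them, and the short fibulins Fbln5 and Efemp2 carry tropoelastin and its crosslinking enzymes to the scaffold. Microfibrils also hold latent TGF-beta and BMP growth factors in the matrix, and in bone, whose mineralized matrix holds little elastin, fibrillins are known chiefly for this storage.

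Of the 10 genes, 7 fell in KO cultures and 1 rose, and Eln and Mfap4 fell the most. Together the 10 took 0.351%, 0.345% and 0.343% of all counts in the KO libraries, against 0.458%, 0.475% and 0.458% in WT. In edgeR's quasi-likelihood F test, with p-values adjusted by Benjamini-Hochberg over all 18221 genes, 7 of the 10 passed as lower, 1 passed as higher and 2 did not pass. Over all genes tested, 11.7% were lower and 11.2% higher, and 22.9% passed in either direction. TMM scales each library by 1 factor, on the premise that most genes do not change. Of all calls 49.0% were higher after TMM scaling, but 63.0% without TMM and 64.4% where limma was run on log2(FPKM + 1). Under both of these settings 7 members were lower and 1 was higher. Without TMM, 8.94% of the 18221 genes were lower and 15.2% higher. In limma, another test run on the 12106 genes with a mean of at least 1 FPKM, 10.5% were lower and 18.9% higher. The median log2 change of the 10 was -0.37, beside 0.0038 over all genes tested. These were bulk libraries, so fewer cells of a type and less RNA per cell cannot be told apart.

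**Figure D1:**
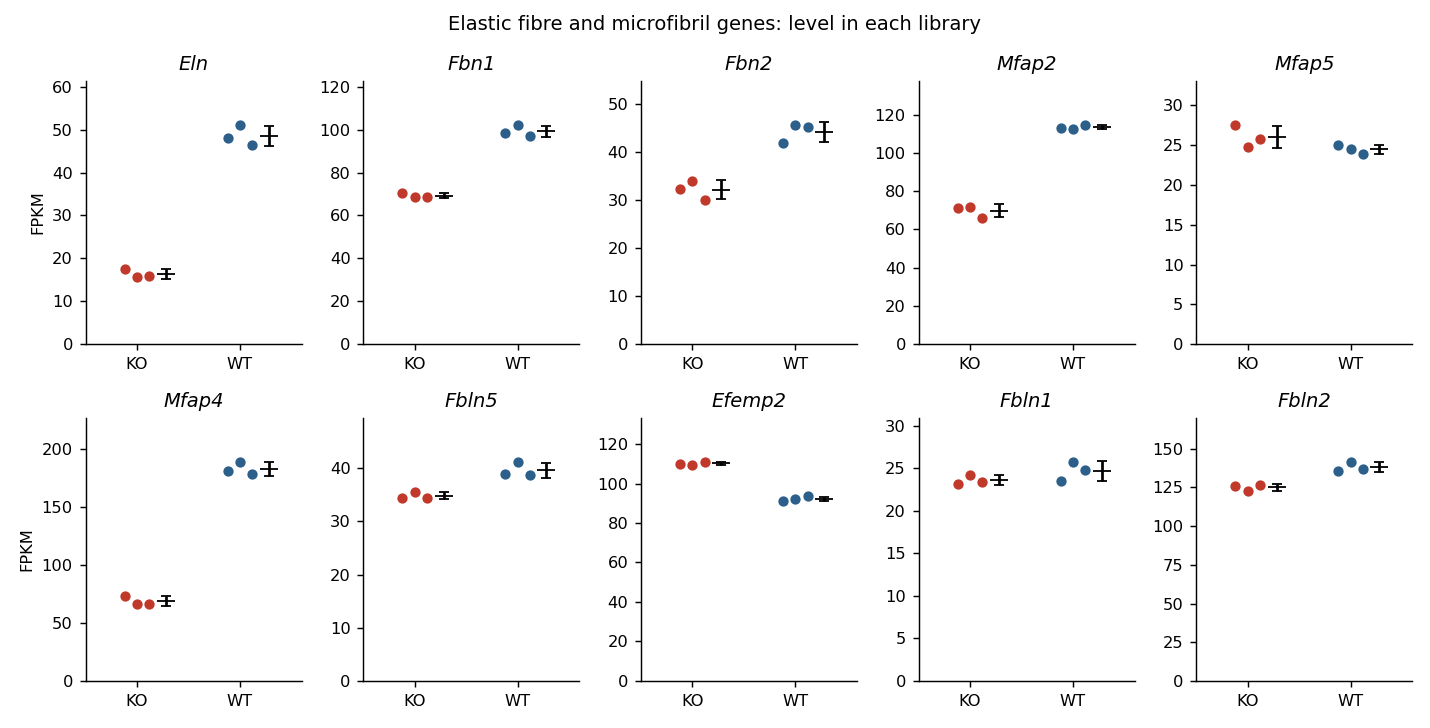
Level of each of the 10 genes in FPKM, with 1 point for each library of KO (red) and WT (blue) and a black bar for the mean ± SD of 3 libraries. The KO points of Eln, Mfap4, Mfap2, Fbn1 and Fbn2 lie well under the WT points, those of Efemp2 lie above, and those of Mfap5 and Fbln1 overlap with WT.

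Eln (ENSMUSG00000029675, chromosome 5, 134731447 to 134776177, minus strand, in the deposited coordinates, whose genome build is not given in the sources used here) changed the most of the 10. It was at 17.6, 15.6 and 15.9 FPKM in the KO libraries and at 48.0, 51.1 and 46.5 FPKM in WT. Every KO value lay under every WT value by a wide gap, and the spread within a genotype was small beside that gap. The KO level was 32.6% of WT with a 95% interval of 30.2 to 35.2% (log2 change -1.62 ± 0.05, SE, edgeR, Benjamini-Hochberg adjusted p = 1.03e-08), and 229 of the 18221 genes tested had a more negative log2 change. Over the 17 alternative settings the log2 change of Eln ran from -1.67 to -1.51, and it passed in each.

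Both fibrillin genes fell, by less. Fbn1 (ENSMUSG00000027204, chromosome 2, 125142514 to 125348305, minus strand), whose human counterpart is mutated in Marfan syndrome, had 70.5, 68.6 and 68.6 FPKM in KO and 98.6, 102.2 and 97.2 FPKM in WT. Fbn2 (ENSMUSG00000024598, chromosome 18, 58141695 to 58343559, minus strand), the fibrillin most abundant in developing tissue, had 32.3, 33.9 and 30.03 FPKM in KO and 41.8, 45.6 and 45.1 FPKM in WT. For both, all KO libraries lay under all WT libraries. Fbn1 stood at 67.4% of WT (65.0 to 69.8%, log2 change -0.57 ± 0.02, adjusted p = 7.24e-08) and Fbn2 at 70.2% (65.7 to 75.0%, log2 change -0.51 ± 0.04, adjusted p = 1.26e-05), both from edgeR with Benjamini-Hochberg adjustment.

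The microfibril-associated genes went separate ways. Mfap4 (ENSMUSG00000042436, chromosome 11, 61376257 to 61379726, plus strand) encodes a protein with a fibrinogen-related domain that binds tropoelastin and fibrillin-1. It was at 73.3, 65.8 and 66.5 FPKM in KO and at 180.8, 188.8 and 177.8 FPKM in WT, 36.3% of WT (34.0 to 38.8%, log2 change -1.46 ± 0.04, edgeR, Benjamini-Hochberg adjusted p = 8.07e-09). Among the 10 genes, Eln and Mfap4 were the 2 called at least 2-fold lower, a class that held 2.01% of all genes tested. Their KO values did not come near their WT values in any library.

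Mfap2 (ENSMUSG00000060572, chromosome 4, 140737729 to 140743125, plus strand), which encodes MAGP-1, had 71.4, 71.9 and 66.0 FPKM in KO and 113.2, 112.6 and 114.6 FPKM in WT. That was 59.4% of WT (56.3 to 62.7%, log2 change -0.75 ± 0.04, edgeR, Benjamini-Hochberg adjusted p = 1.83e-07). Its relative Mfap5 (ENSMUSG00000030116, chromosome 6, 122482804 to 122505725, plus strand), which encodes the integrin-binding MAGP-2, had 27.5, 24.8 and 25.8 FPKM in KO and 25.0, 24.6 and 23.9 FPKM in WT. The Mfap5 values of the genotypes overlapped. Its KO level was 102.7% of WT with a 95% interval of 96.2 to 109.6% (log2 change 0.04 ± 0.04, edgeR, Benjamini-Hochberg adjusted p = 0.597), and without KO replicate 1 the log2 change was -0.0024.

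The short fibulins of elastic fibre assembly moved in opposite directions. Fbln5 (ENSMUSG00000021186, chromosome 12, 101712824 to 101785314, minus strand), which links tropoelastin to integrins and to the crosslinking enzyme LOXL1, had 34.5, 35.5 and 34.5 FPKM in KO and 38.9, 41.2 and 38.7 FPKM in WT. It stood at 84.9% of WT (81.1 to 88.9%, log2 change -0.24 ± 0.03, edgeR, Benjamini-Hochberg adjusted p = 2.43e-04). Efemp2 (ENSMUSG00000024909, chromosome 19, 5523982 to 5532545, plus strand), which encodes fibulin-4 and brings lysyl oxidase to tropoelastin, was the member that rose, to 110.0, 109.6 and 111.1 FPKM in KO, against 91.2, 92.0 and 93.5 FPKM in WT. All KO libraries lay above all WT libraries, at 115.5% of the WT level (111.4 to 119.8%, log2 change 0.21 ± 0.02, edgeR, Benjamini-Hochberg adjusted p = 1.06e-04).

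The longer fibulins, which also bind fibronectin and basement membrane proteins, changed least in the downward direction. Fbln2 (ENSMUSG00000064080, chromosome 6, 91189437 to 91249522, plus strand) had 125.7, 122.7 and 126.9 FPKM in KO and 135.9, 141.7 and 137.0 FPKM in WT, or 87.5% of WT (84.2 to 90.9%, log2 change -0.19 ± 0.02, edgeR, Benjamini-Hochberg adjusted p = 2.78e-04). Fbln1 (ENSMUSG00000006369, chromosome 15, 85090150 to 85170736, plus strand) had 23.2, 24.3 and 23.4 FPKM in KO and 23.5, 25.8 and 24.8 FPKM in WT. The FPKM ranges of Fbln1 overlapped, and at a log2 change of -0.11 ± 0.04 it missed the threshold (92.4% of WT, 87.1 to 98.0%, edgeR, Benjamini-Hochberg adjusted p = 0.0581). Without WT replicate 1 Fbln1 passed, with a log2 change of -0.15 (adjusted p = 0.0265, the lowest of 17 alternatives, which reached 1). Counts pool the splice forms of each gene, so forms of Fbln1 could not be compared.

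**Figure D2:**
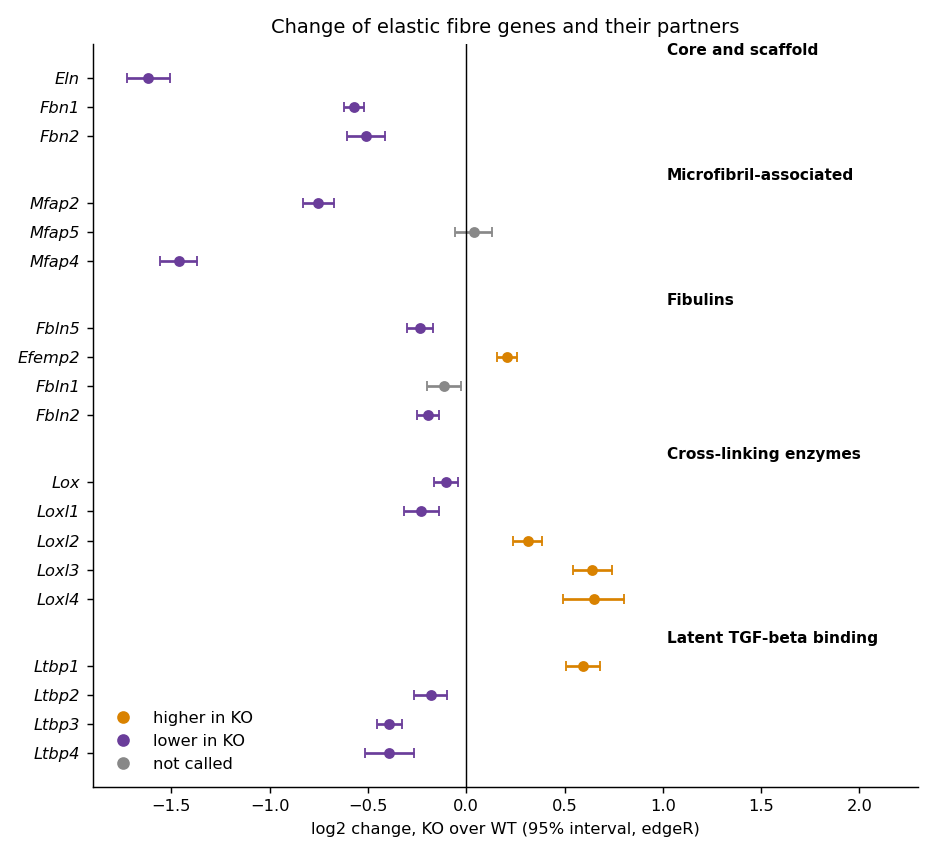
Log2 change, KO over WT, of the 10 genes, the 5 lysyl oxidases and the 4 latent TGF-beta binding proteins, with the 95% interval of edgeR's test. Points left of 0 are lower in KO, with Eln at -1.62 and Mfap4 at -1.46 farthest left, and Efemp2, Loxl2, Loxl3, Loxl4 and Ltbp1 lie to the right.

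On CPM, counts scaled across libraries with TMM, the KO and WT ranges did not overlap for 9 of the 10 genes, with 8 below WT and Efemp2 above. Over all genes tested 38.2% did not overlap. Fbln1 is among the 8, since its CPM ranges were apart (105.4 to 110.2 in KO, 111.2 to 121.6 in WT) while its FPKM ranges were not. Of the 10 genes, 4 overlap a gene on the opposite strand: Mfap4 overlaps Mapk7 by 89 bases, Efemp2 overlaps Mus81 by 173, Fbn1 overlaps Gm9913 by 1297 and Eln overlaps Gm30003 by 282. Whether counting used strand is not given in the sources used here, so reads from the overlaps could be placed with either gene. Mapk7 averaged 2921 counts in KO and 3179 counts in WT, and Mfap4 averaged 9932 counts in KO and 25022 counts in WT. Mus81 averaged 1206 counts in KO and 1126 counts in WT, and Efemp2 averaged 31422 counts in KO and 24935 counts in WT. Gm9913 and Gm30003 averaged at most 61.7 counts in either genotype.

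The order of the 10 genes by level per length differed between the genotypes. In KO the order by mean FPKM was Fbln2 (125.1), Efemp2 (110.2), Mfap2 (69.8), Fbn1 (69.2), Mfap4 (68.5), Fbln5 (34.8), Fbn2 (32.1), Mfap5 (26.0), Fbln1 (23.6) and Eln (16.4). In WT it was Mfap4 (182.5), Fbln2 (138.2), Mfap2 (113.5), Fbn1 (99.3), Efemp2 (92.2), Eln (48.5), Fbn2 (44.2), Fbln5 (39.6), Fbln1 (24.7) and Mfap5 (24.5). Mfap4 was rank 5 in KO and rank 1 in WT, and Eln was rank 10 in KO and rank 6 in WT. Neighbours whose library ranges overlapped were Mfap2 with Fbn1 and Fbn1 with Mfap4 in KO, and Fbln1 with Mfap5 in WT.

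**Figure D3:**
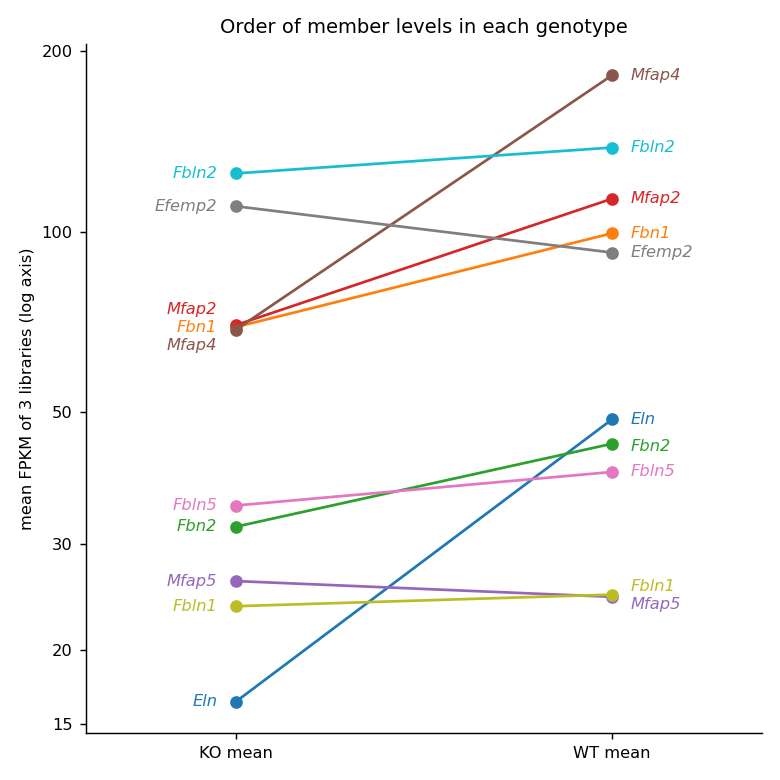
Mean FPKM of 3 libraries for each gene on a log axis, KO on the left and WT on the right, with a line joining the means of a gene. The lines of Eln and Mfap4 are the steepest, and the lines of Efemp2 and Mfap5 are the ones with the higher end at KO.

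Ratios within a library do not depend on how libraries are scaled, and 4 pairs of related members were compared this way. Eln per Fbn1, elastin mRNA per unit of scaffold mRNA, was 0.250, 0.227 and 0.232 in KO and 0.487, 0.500 and 0.478 in WT, a log2 difference of -1.05. Fbln5 per Efemp2 was 0.313, 0.324 and 0.310 in KO and 0.427, 0.448 and 0.414 in WT (log2 difference -0.44). Mfap5 per Mfap2 was 0.386, 0.345 and 0.391 in KO and 0.221, 0.218 and 0.209 in WT (log2 difference 0.79). In these 3 ratios no KO value reached a WT value.

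Each of the 3 gave an exact two-sided permutation p = 0.1, the smallest that 3 against 3 libraries allow, and 0.133 after Benjamini-Hochberg adjustment over the 4 ratios, so none could pass 0.05. Fbn2 per Fbn1, the balance of the fibrillins, was 0.459, 0.495 and 0.438 in KO and 0.424, 0.446 and 0.464 in WT. These ranges overlapped, with a log2 difference of 0.06 and an exact permutation p = 0.5.

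**Figure D4:**
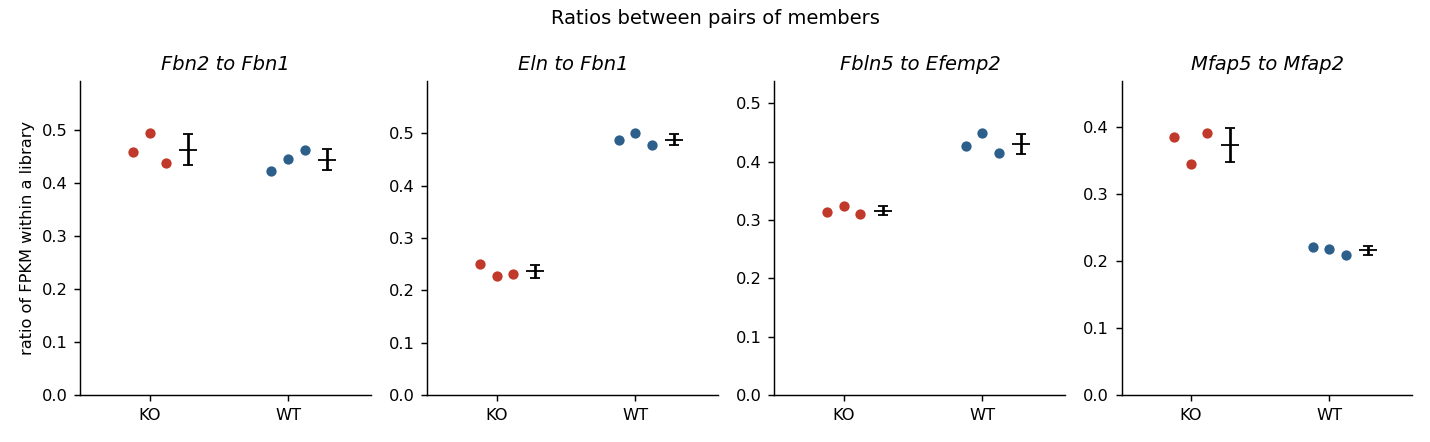
Ratio of FPKM between 2 members in each library of KO (red) and WT (blue), with the mean ± SD of 3 libraries in black. KO lies below WT for Eln to Fbn1 and Fbln5 to Efemp2, above WT for Mfap5 to Mfap2, and overlaps it for Fbn2 to Fbn1.

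The terms of the deposited annotation overlap with the roles by which the 10 were chosen, so carrying them is no separate support. The term microfibril was carried by 6 of the 10 (Fbn1, Fbn2, Efemp2, Mfap2, Mfap4 and Mfap5) and by 13 genes in the whole table. The term elastic fiber was carried by Eln, Fbln1, Fbln5, Efemp2 and Mfap4, which were the 5 genes of the table that had it. Calcium ion binding, the mark of the EGF-like repeats that build fibrillins and fibulins, was carried by the fibrillin and fibulin genes, 6 in all, and by 632 genes in the whole table. Of 12 tested genes under the Reactome term for proteins bound to elastic fibres, 9 are members, and 8 of the 12 fell and 1 rose. The one outside the 10 that fell was Emilin1, so this count largely repeats that of the members. Over all genes tested 11.7% were lower and 11.2% higher.

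RefSeq start-site windows (GRCm38.p6, 250 bases before to 50 after the start) were at hand for 6 of the 10 genes. They are Fbn1, Mfap2, Fbln1, Fbln2, Fbln5 and Efemp2. The windows of Fbn1 and Mfap2, which fell, and of Efemp2, which rose, are shown because they set promoters of genes with opposite change side by side. Capitals mark matches, on either strand, to GGGCGG (the GC box of SP1), TATAAA (the TATA box), GGAATG (the site of TEAD factors, which act downstream of NDR/LATS kinases) or TGANTCA (AP-1). Fbn1 is chr2:125506389-125506688 on the minus strand, Mfap2 is chr4:141010431-141010730 on the plus strand, and Efemp2 is chr19:5473696-5473995 on the plus strand. These positions do not match the deposited gene coordinates given above, where Mfap2 ends at 140743125, before its window starts. Window positions and deposited coordinates should therefore not be compared.
Fbn1: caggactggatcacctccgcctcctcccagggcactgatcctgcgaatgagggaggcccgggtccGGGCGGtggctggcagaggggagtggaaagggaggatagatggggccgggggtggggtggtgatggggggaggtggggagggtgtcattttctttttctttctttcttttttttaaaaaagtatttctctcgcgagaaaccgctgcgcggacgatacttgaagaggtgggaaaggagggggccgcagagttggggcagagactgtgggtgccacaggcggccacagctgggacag
Mfap2: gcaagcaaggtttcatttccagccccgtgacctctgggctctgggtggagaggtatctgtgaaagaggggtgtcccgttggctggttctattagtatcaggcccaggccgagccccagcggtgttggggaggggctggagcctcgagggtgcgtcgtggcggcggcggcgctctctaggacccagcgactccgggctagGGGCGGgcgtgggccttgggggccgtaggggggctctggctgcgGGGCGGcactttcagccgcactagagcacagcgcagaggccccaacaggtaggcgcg
Efemp2: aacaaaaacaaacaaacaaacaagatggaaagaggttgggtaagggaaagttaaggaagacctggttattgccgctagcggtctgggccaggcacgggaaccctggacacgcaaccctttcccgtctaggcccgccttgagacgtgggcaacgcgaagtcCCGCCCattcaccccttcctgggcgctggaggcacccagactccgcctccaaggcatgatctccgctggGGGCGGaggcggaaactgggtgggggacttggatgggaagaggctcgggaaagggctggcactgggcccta
Each printed window is the first listed for its gene, and its matches are all GC boxes, 1 in Fbn1, 2 in Mfap2 and 2 in Efemp2. The other windows of Efemp2, which overlap each other, held 5 and 7, and the second window of Mfap2 held 0. Over 1 window for each of 27025 genes, GGGCGG was found in 35.9%, TATAAA in 14.2%, GGAATG in 14.6% and TGANTCA in 7.93%. Of the 6 members, 5 held GGGCGG in the first window listed for the gene, all but Fbln1, whose second window held 2. Those 5 windows were 60.3 to 68% G and C, and the first window of Fbln1 was 51.7%. The median over 1 window per gene was 52.7%, and the part of base content in the matches was not tested. A GGAATG match was found in the second window of Mfap2, chr4:141010174-141010473.

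The wider elastic fibre pathway was mixed. Of 65 tested genes outside the 10, from 6 lists of crosslinking enzymes, other fibre genes, microfibril-linked ADAMTS proteins, receptors, proteases and TGF-beta genes, 30 fell and 18 rose, with a median log2 change of -0.10. Over all genes tested 11.7% were lower and 11.2% higher, so calls were frequent outside the 10 as well. The same shares apply to the list counts that follow. The lysyl oxidase family, which joins tropoelastin and collagen chains, went both ways. Lox, the most abundant per length, was at 607 ± 19.9 FPKM in KO and 631 ± 14.0 FPKM in WT (log2 change -0.10 ± 0.03, edgeR, Benjamini-Hochberg adjusted p = 0.0208). Lox lost that call in edgeR without TMM (adjusted p = 0.176), without a count filter (0.0930), and without WT replicate 1 (0.0872) or WT replicate 3 (0.0625). It lost the call under limma on log2(FPKM + 1) too (adjusted p = 0.235), and its adjusted p ran up to 1 over the alternatives.

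Loxl1, the elastin-specific member that Fbln5 binds, fell to 106.1 ± 5.71 FPKM in KO, against 120.1 ± 3.30 FPKM in WT (log2 change -0.23 ± 0.04). Loxl2 (0.31 ± 0.03), Loxl3 (0.64 ± 0.04) and Loxl4 (0.65 ± 0.07) rose, Loxl3 to 61.3 ± 3.88 FPKM in KO, against 38.0 ± 0.476 FPKM in WT. The adjusted p for Loxl1 was 0.00225 in edgeR with Benjamini-Hochberg adjustment, and 0.0632 in limma on log2(FPKM + 1) with no filter on low values.

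Among 19 tested other genes of microfibrils and elastic fibres 11 fell and 4 rose, with a median of -0.18. Hmcn1, the fibulin relative hemicentin-1, fell to 0.344 ± 0.0171 FPKM in KO, against 1.96 ± 0.0756 FPKM in WT (log2 change -2.56 ± 0.06). The small proteoglycan Dcn fell (-0.92 ± 0.03), whereas Efemp1, which encodes fibulin-3, rose to 60.6 ± 1.65 FPKM in KO, against 35.9 ± 0.213 FPKM in WT (0.70 ± 0.03). Fn1, the fibronectin on which microfibrils assemble, rose as well (0.75 ± 0.03). The latent TGF-beta binding proteins, which share the fibrillin fold and tether growth factors to microfibrils, split: Ltbp1 rose (0.59 ± 0.04), and Ltbp2 (-0.18 ± 0.04), Ltbp3 (-0.39 ± 0.03) and Ltbp4 (-0.39 ± 0.06) fell. Ltbp2 lost its call in limma on log2(FPKM + 1) with no filter on low values (adjusted p = 0.0929).

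Of 10 ADAMTS and ADAMTS-like genes linked to microfibrils 5 fell and 2 rose (median -0.19). Adamts17 fell to 0.519 ± 0.0383 FPKM in KO, against 2.47 ± 0.230 FPKM in WT (-2.30 ± 0.10), and Thsd4, which encodes the fibrillin-binding ADAMTSL6, fell by 0.78 ± 0.05 on the log2 scale. Adamts10 (-0.37 ± 0.04) and Adamtsl1 (-0.31 ± 0.04) were lower too. The number that rose was 1, in place of 2, without KO replicate 1, 2 or 3, without WT replicate 1 or 3, with a replicate block, and with no filter in edgeR or limma.

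Of 10 tested receptor genes 3 fell and 3 rose (median -0.03), and the integrin subunits were split. Itgb3 (-0.80 ± 0.07) and Itgb5 (-0.29 ± 0.02) fell while their partner Itgav (0.20 ± 0.02) and the lectin gene Lgals3 (0.68 ± 0.06) rose. Of 13 tested proteases 5 fell and 4 rose (median -0.01). The gelatinase Mmp9 fell to 1.0 ± 0.156 FPKM in KO, against 37.6 ± 1.98 FPKM in WT, Mmp14 (-0.38 ± 0.02) and the cathepsin Ctsk (-0.45 ± 0.03) fell, and Ctss, an elastin-cutting cathepsin that macrophages express strongly, rose to 32.8 ± 1.69 FPKM in KO, against 10.7 ± 2.02 FPKM in WT. Of 8 TGF-beta ligand, receptor and anchor genes 4 fell and 2 rose (median -0.17). The ligands Tgfb2 (-0.87 ± 0.03) and Tgfb3 (-0.24 ± 0.02) and the receptor Tgfbr2 (-0.18 ± 0.03) were lower, and Lrrc32, which anchors latent TGF-beta to cell surfaces, was higher (0.83 ± 0.05). Changes in brackets are log2 KO over WT ± SE, and the genes named as rising or falling passed edgeR's test with Benjamini-Hochberg adjustment.

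**Figure D5:**
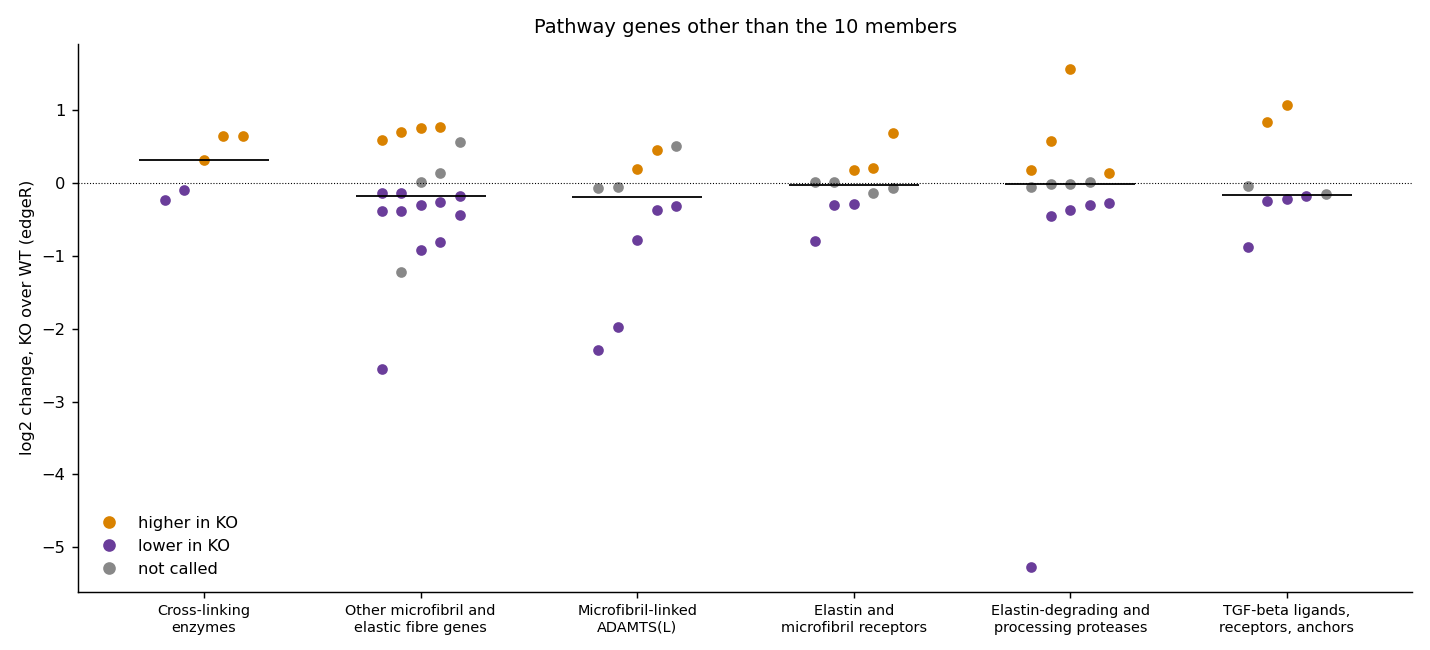
Log2 change, KO over WT, of the tested genes in 6 lists of elastic fibre partners, coloured by edgeR's call, with a black line at the median of each list. The lowest point is Mmp9 at -5.27, the list medians lie between -0.19 and 0.31, and each list holds genes of both directions.

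Markers of other cells moved with genotype in the same libraries. Of 10 macrophage markers 9 rose (median 1.18), with sums of 967 to 1074 CPM in KO and 384 to 505 CPM in WT. C1qc, a chain of complement C1q, was at 13.4 ± 0.493 FPKM in KO, against 4.29 ± 0.688 FPKM in WT. Another C1q chain, C1qb, was at 26.5 ± 1.44 FPKM in KO, against 9.16 ± 1.33 FPKM in WT. Of 10 fibroblast and tendon markers 7 fell and 1 rose (median -0.62). They summed to 13082 to 13374 CPM in KO and 16295 to 16498 CPM in WT, and Tnmd, a tendon membrane protein, was at 138.5 ± 1.43 FPKM in KO and 273.2 ± 4.83 FPKM in WT. Dcn stands both in that list and among the fibre genes. Of 10 osteoblast markers 6 fell and 1 rose (median -0.48, sums of 42479 to 44821 CPM in KO and 59686 to 61514 CPM in WT), with Alpl at -1.19 ± 0.06.

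Smooth muscle, a main source of elastin in arteries, gave 3 of 10 markers higher and 2 lower (median 0.03, sums of 3116 to 3376 CPM in KO and 3562 to 3688 CPM in WT), with Actg2 at 0.46 ± 0.03 and Smtn at -0.34 ± 0.03. Most of those sums was Acta2, named here after its values were seen, at 2308 CPM in KO and 2656 CPM in WT (-0.20 ± 0.03). Of 5 endothelial markers 3 fell, including Tek and Cdh5, at sums of 6.85 to 8.06 CPM in KO and 13.5 to 13.7 CPM in WT. Of 9 chondrocyte markers 3 fell and 2 rose (sums of 4976 to 5369 CPM in KO and 3633 to 4053 CPM in WT), with Col9a1 at -1.25 ± 0.04 and Matn1 at -4.54 ± 0.22, the 2 of lowest p. The chondrocyte median was -0.07. The cartilage collagen gene Col2a1, named here after its values were seen, rose by 0.60 ± 0.04 on the log2 scale and made up most of those sums, at 4488 CPM in KO and 2961 CPM in WT, and the cartilage transcription factor gene Sox9 rose by 0.52 ± 0.04. Of 6 tested skeletal muscle markers 3 fell (sums of 5.15 to 6.37 CPM in KO and 8.56 to 10.5 CPM in WT), and Mybph and Myot were listed at 0 FPKM in all KO libraries. In WT Mybph averaged 0.244 FPKM and Myot 0.122 FPKM, so both were traces there too. Myot lost its call in limma on log2(FPKM + 1) with no filter on low values (adjusted p = 0.0733). The mitochondrially encoded RNAs, read as a sign of RNA quality, had 1 of 8 lower, mt-Co1 at -0.08 ± 0.02. The part of these cell types in the changes of the 10 genes was not tested.

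The genes whose pattern over the 6 libraries was most like that of Eln were found among 12826 genes with a mean of at least 1 CPM, leaving out 9 with a 0 in some library. Likeness was the root mean square difference of log2 CPM, each gene centred on its own mean. The nearest were Adh1, an alcohol dehydrogenase (0.0274 log2 units), the member Mfap4 (0.0787), the TNF receptor family member Tnfrsf19 (0.0794), the growth factor Igf2 (0.0805) and the membrane protein gene Shisa2 (0.0872). Adh1 averaged 16.3 ± 0.946 CPM in KO and 48.9 ± 3.47 CPM in WT, and Shisa2 averaged 11.5 ± 0.244 CPM in KO and 36.7 ± 1.59 CPM in WT. With 0.5 CPM added before the log, Shisa2 left the nearest 5 and Mylpf, a fast muscle myosin light chain at 0.293 ± 0.0574 CPM in KO and 1.74 ± 0.119 CPM in WT, entered them (0.0689).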

How the data were processed

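PolyA RNA was sequenced from 6 libraries, 3 KO and 3 WT, grouped by the labels. The counts are whole-number counts per gene as deposited by the authors, and the FPKM values were computed and deposited by the authors. The submitters' processing notes name cutadapt 1.9, HISAT2 2.0.4 and StringTie 1.3.4d without parameters and list a human build although the identifiers are of mouse, so the deposited coordinates are printed without a build. The counting method is not given in the sources used here.

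Counts were tested with edgeR 4.0.16 (TMM, filterByExpr, quasi-likelihood, no covariate, two-sided, Benjamini-Hochberg over all genes tested, adjusted p under 0.05) in R 4.3.3, and SE was the size of the log2 change divided by the root of F. Alternatives used limma 3.58.1 and DESeq2 1.42.0. Ratios used an exact permutation test. Named genes were the 10 members, all lysyl oxidases and Ltbp genes, and up to 4 genes of lowest p of each other pathway list and 2 of each marker list. Col1a2, Bglap, Emilin1, mt-Co1, Col2a1, Acta2, Sox9 and the genes that overlap members were otherwise chosen for their role, level or position. The members and lists were chosen with earlier results of these data known, and the motifs after the values were seen. Replicates of a genotype differed by more than counting noise (chi-square per gene 9.21 to 15.9), and the common biological coefficient of variation was 12.6%. The intervals cover the spread between these libraries. The pipeline was tested on simulated counts with planted changes and the same dispersion for every gene. That run bears on the code and not on the calls made in these data.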

Additional observations from a re-analysis of the deposited data

How the results depend on the processing

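The changes of the 10 genes, the counts of genes called and the 6 pathway list counts were recomputed under 17 alternative settings of scaling, filter, tool, unit, block, minimum fold and left-out library, as were the other genes named by rule, except where a setting's filter dropped a gene. The ratios were recomputed under the settings that bear on them. The marker list counts, Reactome counts, range overlaps and order of levels were not. Of 170 recomputed changes of the 10 genes, 161 kept their direction and their side of the threshold, and the log2 change of Mfap5 reversed to -0.0024 without KO replicate 1 and was at most 0.076 without any other library. The 7 lower and 1 higher members became 3 and 0 when edgeR tested against a 1.5-fold change, where Eln, Mfap4 and Mfap2 passed, and the genes called became 642 (338 higher, 304 lower) by the construction of that test. In limma on FPKM the genes called lower were 1267 with a pseudocount of 1, 1254 with 0.1 and 1246 with no filter, against 2131 in edgeR, and the cause was not tested. Leaving out each library gave 3317 to 3576 genes called, 1588 to 1731 higher and 1712 to 1893 lower, with 7 to 8 members lower and 1 higher. The log2 differences of the ratios then ran from 0.01 to 0.10 (Fbn2 to Fbn1), -1.09 to -1.02 (Eln to Fbn1), -0.47 to -0.41 (Fbln5 to Efemp2) and 0.76 to 0.85 (Mfap5 to Mfap2). With no count filter 3468 genes were called, against 4179.

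Same-numbered KO and WT libraries did not deviate together (correlations of -0.09, -0.01 and -0.0008). The labels name no pairing, and 3 libraries per genotype cannot show that there was none. With a replicate block 3888 genes were called, and Fbln1 passed (log2 change -0.11, adjusted p = 0.0371), as it did with robust dispersion (adjusted p = 0.0368). The mean ratio differences within numbered pairs equal those between genotypes by arithmetic, so they are no further check. With 3 pairs no p under 0.25 is possible. The alternatives for genes other than the 10, and the added 0.5 CPM in the likeness to Eln, were chosen after seeing the data.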
